A study of Homo sapiens with 6 samples.

Results

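Expression was examined for 10 enzymes, chosen by gene symbol for their place in the synthesis of serine, glycine, one-carbon units and asparagine. All 10 (PHGDH, PSAT1, PSPH, SHMT1, SHMT2, MTHFD1, MTHFD2, MTHFD1L, ALDH1L2 and ASNS) were found once each among the 59653 gene symbols of the count table, and all 10 were among the 19008 genes with enough counts to be tested. The rule for membership was the symbol alone, and the set was put together with earlier results of these data known. The libraries came from SK-OV3, an established human ovarian cancer cell line, described in the labels as wild type. Cells were transfected with a pool of siRNAs against the long non-coding RNA PVT1 (siPVT1) or with a non-targeting control pool (siControl), and RNA was taken 48 h later, with 3 libraries in each group. There was 1 cell line and 1 pool per group, so an effect of lower PVT1 and an effect of the siRNA sequences of that pool cannot be told apart. Nothing in the labels says that the replicates were separate cultures. The p-values thus judge the group difference against variation between libraries that may be technical.

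Serine is made from the glycolytic intermediate 3-phosphoglycerate by PHGDH, PSAT1 and PSPH acting in turn. Serine hydroxymethyltransferase, SHMT2 in mitochondria and SHMT1 in the cytosol, then splits serine into glycine and a one-carbon unit carried on tetrahydrofolate. In mitochondria the unit is oxidised by MTHFD2 and leaves as formate through MTHFD1L or as carbon dioxide through ALDH1L2, and in the cytosol MTHFD1 takes formate back into the folate pool that feeds purine and thymidylate synthesis. ASNS makes asparagine from aspartate and glutamine. Many of these genes are known targets of the transcription factor ATF4, which is translated when amino acids are short or proteins misfold, and cancer cells often carry high levels of them.

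PVT1 itself, the targeted RNA, was read first. Its normalized count, the count divided by the TMM-scaled library size, was 3289, 4080 and 3368 in siControl replicates 1 to 3 and 2344, 2105 and 2057 in siPVT1 replicates 1 to 3. The groups did not overlap, and PVT1 fell by 0.72 on the log2 scale (SE 0.097, edgeR adjusted p = 0.000342, n = 3 per group). That left 0.61 of the siControl level, a fall short of the 2-fold limit used below for a call. Total counts ran from 28383171 to 35059576 per library. The median gene of siPVT1 replicates 1 and 3 stood 0.138 and 0.157 from its group mean on the log2 scale, against 0.067 in replicate 2 and 0.057 to 0.081 in siControl. Epithelial keratins KRT8 and KRT18 had 7788 to 11347 normalized counts in every library, CDH1 had 0 to 46.9 and EPCAM 41.2 to 127. Summed over 10 ovarian and epithelial markers, the level was 28890 to 31934 in siControl and 36647 to 40045 in siPVT1. The level of that sum was carried by KRT8, KRT18 and CDH2, and it joined markers that moved in opposite directions. PAX8, which went from 2620 ± 23.6 to 5240 ± 607 (SD, n = 3), also had a large part in its rise. The siPVT1 libraries differed in some markers: MUC16 had 199, 633 and 17.8 in replicates 1 to 3, against 298 to 624 in siControl. WT1 (-1.01, SE 0.163) and ERBB2 (-0.43, SE 0.070) were lower on the log2 scale in edgeR, and MSLN (2.94, SE 0.229) and PAX8 (0.9995, SE 0.086) higher. Of 7 markers of other cell types 6 had any count and CD3E had none. Their sum was 70.3 to 96.7 in siControl and 351 to 418 in siPVT1, and the endothelial gene PECAM1 alone gave 33.2 to 39.9 and 280.2 to 325. The part of these markers in the results below was not tested.

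Of these enzymes 7 were lower after siPVT1 and none was higher at an adjusted p under 0.05. PSAT1, PSPH, ALDH1L2 and ASNS were at least 2-fold lower at an adjusted p under 0.05, the rule for a call. PHGDH, MTHFD2 and MTHFD1L fell by less, and SHMT1, SHMT2 and MTHFD1 did not pass the test. The count of 4 called of 10 compares with 21.5% of all tested genes called in either direction and 9.64% called lower. The count of 7 of 10 past the adjusted p compares with 57.9% of tested genes in either direction and 28.4% in the lower direction. The groups did not overlap for 8 of the 10 enzymes, against 65.6% of tested genes, a share that is not far from the background. The median log2 fold change of the 10 was -0.69, and that of all tested genes 0.0014. Together the 10 genes took 0.173% to 0.179% of all counts in siControl and 0.0878% to 0.0933% in siPVT1. In bulk RNA fewer cells carrying a transcript and less of it per cell cannot be told apart.

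**Figure D1:**
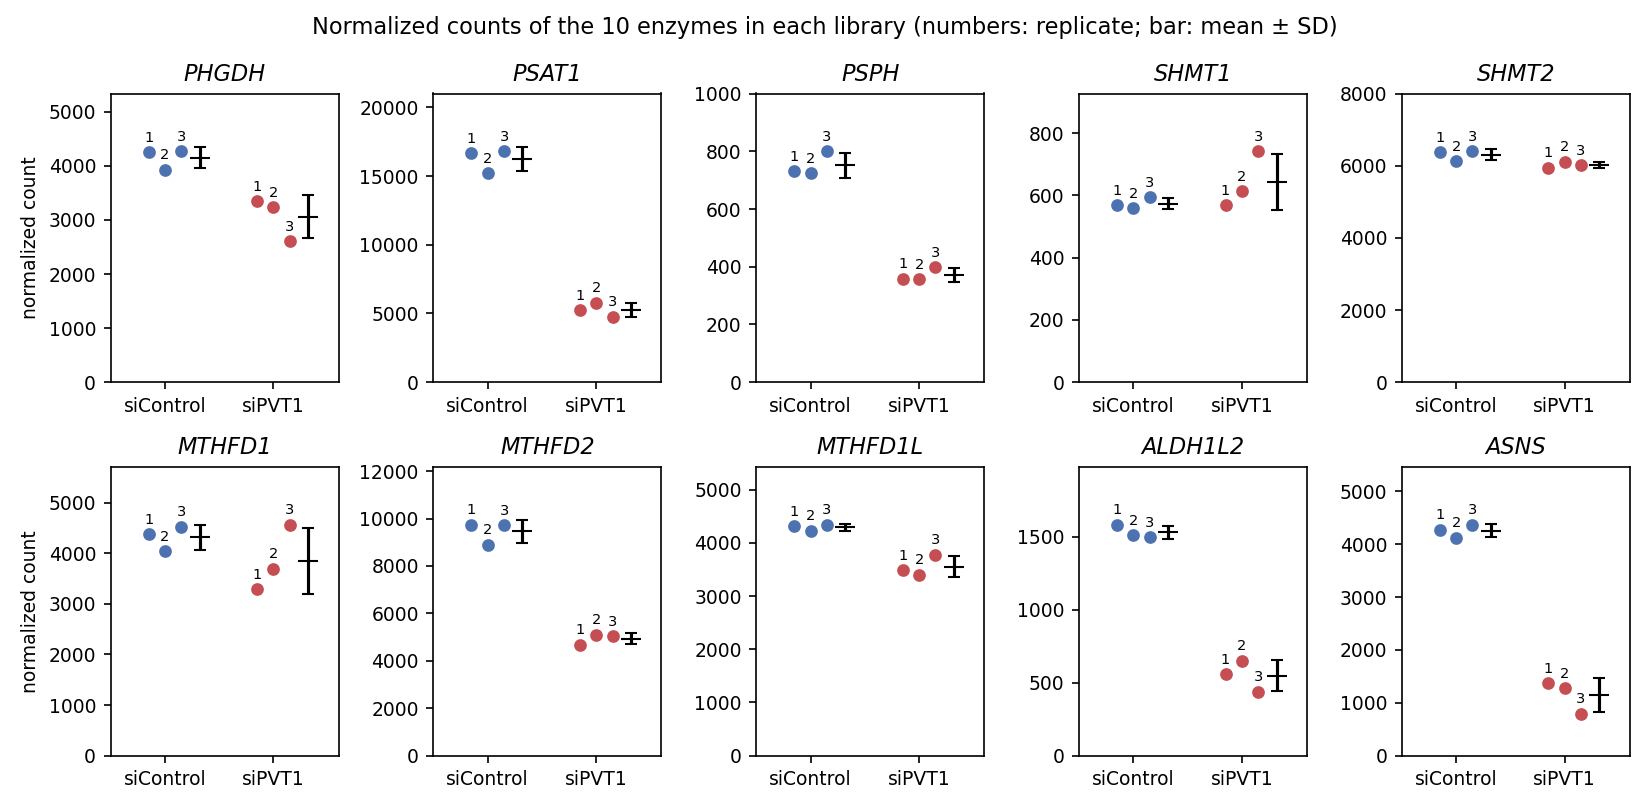
Normalized counts of the 10 enzymes in each library, with a separate panel and linear axis for each enzyme. Numbered points are libraries, and bars are group means ± SD. All 3 siPVT1 points lie below all 3 siControl points for 8 enzymes, and the points of SHMT1 and MTHFD1 overlap.

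The 3 steps of serine synthesis did not fall equally. PHGDH (chr1:119648411-119744218, plus strand, 12 exons; gene spans are those of GENCODE v44 on GRCh38), which oxidises 3-phosphoglycerate and commits it to serine, had 4259, 3927 and 4272 normalized counts in siControl and 3350, 3237 and 2607 in siPVT1. All siPVT1 libraries were lower, replicate 3 the lowest. The log2 fold change was -0.44 (SE 0.098, 95% interval -0.66 to -0.21, edgeR adjusted p = 0.00506). PSAT1 (chr9:78297125-78330093, plus strand, 9 exons), the aminotransferase of the second step, had 16647, 15200.3 and 16802 in siControl and 5226, 5795 and 4765 in siPVT1. The groups were far apart, and the highest siPVT1 library was far below the lowest siControl library. PSAT1 was the most abundant of the 10 enzymes in siControl and fell by 1.62 on the log2 scale (SE 0.084, edgeR adjusted p = 3.07e-06). PSPH (chr7:56011051-56051604, minus strand, 8 exons), the phosphatase that releases serine, had 730.4, 723 and 801 in siControl and 359, 357 and 398 in siPVT1. The siPVT1 libraries were close to each other, with a mean of 371 ± 23.2 (SD, n = 3) against 751 ± 42.7. The log2 fold change of PSPH was -1.02 (SE 0.085, 95% interval -1.21 to -0.82, edgeR adjusted p = 2.83e-05), just past the 2-fold limit, and it was -0.97 without siControl replicate 3, which ends the call. Within a library, PSAT1 counts were 3.90 ± 0.031 times those of PHGDH in siControl and 1.73 ± 0.145 times in siPVT1 (SD, n = 3). Summed over the 3 genes, normalized counts were 21120 ± 1106 in siControl and 8698 ± 835 in siPVT1, which is 41.2% of the control. Most of that sum was PSAT1, at 16216 ± 883 in siControl and 5262 ± 516 in siPVT1.

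Among the mitochondrial folate enzymes SHMT2 did not pass the test, and the enzymes after it were lower by different amounts. SHMT2 (chr12:57229573-57234935, plus strand, 12 exons), which makes mitochondrial glycine from serine, had 6382, 6133 and 6404 normalized counts in siControl and 5942, 6109 and 6016 in siPVT1. The siPVT1 values were all just under the siControl values, by a margin smaller than the spread within the groups. The highest siPVT1 value was 6109 and the lowest siControl value 6133, beside SDs of 83.7 in siPVT1 and 150.5 in siControl. Its log2 fold change was -0.07 (SE 0.052, 95% interval -0.19 to 0.05, edgeR adjusted p = 0.308). MTHFD2 (chr2:74186172-74217565, plus strand, 8 exons), the mitochondrial methylene-tetrahydrofolate dehydrogenase and cyclohydrolase, had 9740, 8904 and 9726 in siControl and 4688, 5097 and 5038 in siPVT1. The groups were far apart, and replicates within each were close. Its log2 fold change of -0.94 (SE 0.064, 95% interval -1.08 to -0.79, edgeR adjusted p = 1.07e-05) missed the 2-fold limit, and it was -1.08, past the limit, with libraries scaled by total count. MTHFD1L (chr6:150865679-151101887, plus strand, 28 exons), which releases formate, had 4313, 4227 and 4343 in siControl and 3486, 3403 and 3778 in siPVT1. Its fall of 0.27 on the log2 scale was small but larger than the spread between replicates (SE 0.061, edgeR adjusted p = 0.00507). ALDH1L2 (chr12:105019784-105107643, minus strand, 23 exons), which oxidises formyl-tetrahydrofolate to carbon dioxide with formation of NADPH, had 1581, 1509 and 1497 in siControl and 559, 651 and 437 in siPVT1. Replicate 3 was the lowest siPVT1 library, and all 3 were under every siControl library. ALDH1L2 fell by 1.48 on the log2 scale (SE 0.131, 95% interval -1.78 to -1.18, edgeR adjusted p = 3.86e-05). The 4 genes summed to 21587 ± 705 in siControl and 15068 ± 340 in siPVT1, or 69.8% of the control.

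The cytosolic enzymes did not pass the test. SHMT1 (chr17:18327860-18363563, minus strand, 12 exons), the cytosolic counterpart of SHMT2, had 569, 558 and 595 normalized counts in siControl and 569, 615 and 742 in siPVT1. One siPVT1 library lay inside the siControl range and the others above it. Its log2 fold change was 0.16 (SE 0.107, 95% interval -0.08 to 0.41, edgeR adjusted p = 0.227), and the exact two-sided permutation test gave p = 0.3, where 0.1 is the smallest it can give with 3 against 3. MTHFD1 (chr14:64388031-64463457, plus strand, 28 exons), a trifunctional enzyme that links formate to the other folate forms, had 4380, 4038 and 4523 in siControl and 3293, 3697 and 4565 in siPVT1. Replicates 1 and 2 of siPVT1 were below siControl and replicate 3 was above it. The log2 fold change of MTHFD1 was -0.16 (SE 0.115, 95% interval -0.43 to 0.10, edgeR adjusted p = 0.258). Without siPVT1 replicate 3 it was -0.32 (SE 0.062, edgeR adjusted p = 0.00129), so that 1 library decides whether MTHFD1 passes. The pair summed to 4888 ± 266 in siControl and 4494 ± 740 in siPVT1, or 91.9% of the control.

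**Figure D2:**
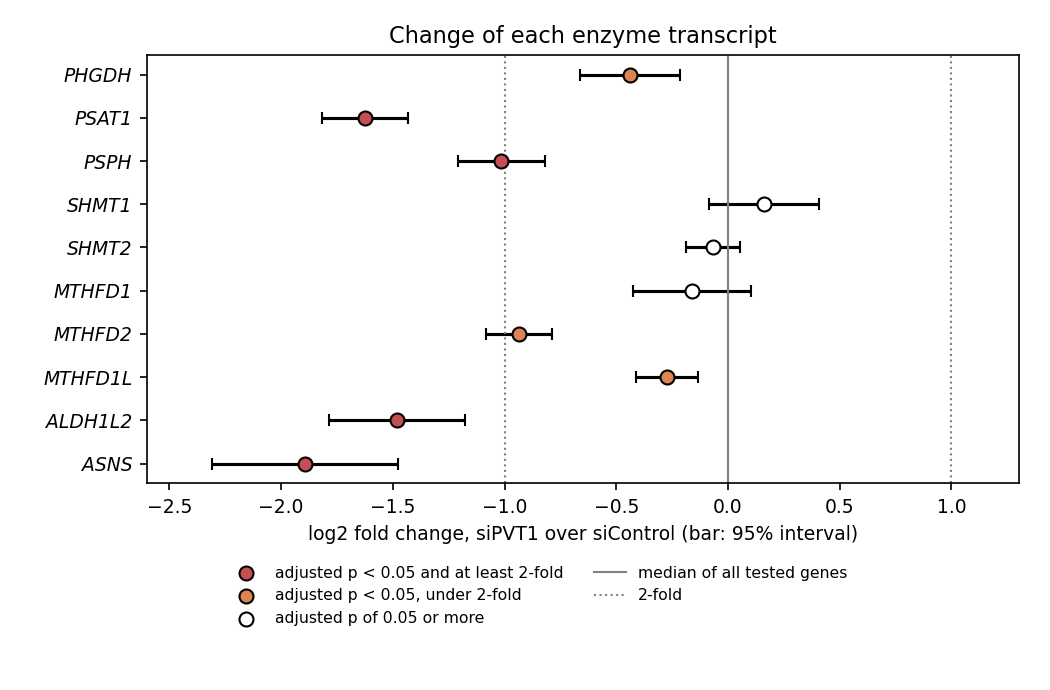
Log2 fold change (siPVT1 over siControl) of each enzyme, with its 95% interval from the edgeR fit on all genes. ASNS, PSAT1, ALDH1L2 and PSPH lie past -1, and the intervals of SHMT1, SHMT2 and MTHFD1 cross 0.

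The balance between compartments was read as a ratio of normalized counts within each library, which does not depend on how libraries are scaled. The log2 ratio of MTHFD2 to MTHFD1 was 1.15, 1.14 and 1.10 in siControl and 0.51, 0.46 and 0.14 in siPVT1. It was lower in every siPVT1 library, by 0.76 on average (exact permutation p = 0.1, the smallest possible, adjusted over 3 ratios p = 0.15). The log2 ratio of SHMT2 to SHMT1 was 3.49, 3.46 and 3.43 in siControl and 3.39, 3.31 and 3.02 in siPVT1, a mean difference of -0.22 with the same exact permutation p of 0.1 (adjusted 0.15). For MTHFD1L against MTHFD1 the values were -0.02, 0.07 and -0.06 in siControl and 0.08, -0.12 and -0.27 in siPVT1. These overlapped, with a difference of -0.10 (exact permutation p = 0.5, adjusted 0.5). No ratio could pass 0.05 with 3 libraries against 3. Within the mitochondrial arm, MTHFD2 counts, not divided by transcript length, were 1.53, 1.45 and 1.52 times those of SHMT2 in siControl and 0.789, 0.834 and 0.837 times in siPVT1. Per kilobase of transcript, MTHFD2 was below SHMT2 in both groups (2148 against 2924 in siControl and 1122 against 2792 in siPVT1).

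**Figure D3:**
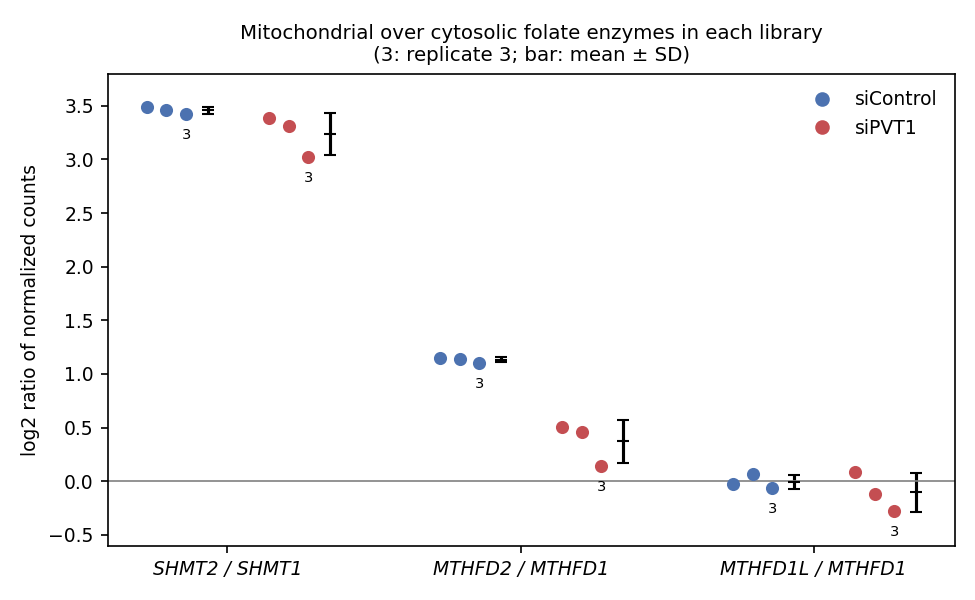
Log2 ratio of mitochondrial to cytosolic enzyme in each library, with points for libraries, replicate 3 numbered, and bars for group means ± SD. The MTHFD2 to MTHFD1 ratio lies at 1.10 to 1.15 in siControl and at 0.14 to 0.51 in siPVT1, and replicate 3 is the lowest siPVT1 library in each ratio.

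ASNS (chr7:97851677-97872542, minus strand, 13 exons), asparagine synthetase, fell the most of the 10. Its normalized counts were 4280, 4124 and 4371 in siControl and 1375, 1282 and 791 in siPVT1. Replicate 3 was again the lowest, and the siPVT1 libraries spread more widely (1149 ± 314 against 4258 ± 125, SD, n = 3). The log2 fold change was -1.89 (SE 0.181, 95% interval -2.31 to -1.48, edgeR adjusted p = 5.57e-05), and the siPVT1 mean was 27.0% of the control. RefSeq lists 2 starts of ASNS, and the promoter of 1 of them is shown because it belongs to a called member and holds the C/EBP-ATF composite core, the kind of element ATF4 binds. The window of the other start held no match. The one shown covers 250 bases before and 50 after the start (GRCh38.p14, chr7:97872359-97872658, minus strand, 5′ to 3′), and the capitals mark TGATGNAA, whose first base lies 68 bases before that start.
ASNS promoter: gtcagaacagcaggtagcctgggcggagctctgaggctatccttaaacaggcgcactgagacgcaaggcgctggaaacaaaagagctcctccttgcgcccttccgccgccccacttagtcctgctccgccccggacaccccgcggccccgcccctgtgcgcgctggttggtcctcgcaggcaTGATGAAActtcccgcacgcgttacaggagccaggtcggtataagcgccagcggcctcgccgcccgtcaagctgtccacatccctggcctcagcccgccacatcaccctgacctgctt

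The RefSeq promoter table held 7 of the 10 enzymes (PSPH, SHMT2 and ALDH1L2 were not used here), and both strands of the promoter of every listed start were searched. A gene was counted where any of its starts had a match. TGATGNAA was found for ASNS and MTHFD1L, 2 of 7, against 4.46% of 27305 genes in the table. MTHFD1L has 4 listed starts, and the same match lies 129 or 90 bases before, or 24 bases after, 3 of them, with none at the other. It is set beside that of ASNS to show how the surrounding letters differ (GRCh38.p14, chr6:150866346-150866375, plus strand, and chr7:97872458-97872487, minus strand, match in capitals).
MTHFD1L: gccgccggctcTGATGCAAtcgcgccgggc
ASNS: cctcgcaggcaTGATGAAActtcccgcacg
MTHFD1L fell by 0.27 and ASNS by 1.89 on the log2 scale, and no match was found for PSAT1, which fell by 1.62. The E-box CACGTG, the site of MYC and related factors, was found for MTHFD1 and MTHFD1L (2 of 7, against 8.77% of genes). The antioxidant element core TGACNNNGC, the site of NRF2 with a small MAF protein, was found for MTHFD2 (1 of 7, against 16.1%). Matches of different motifs could overlap, and a match describes letters in this window only.

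Levels of different enzymes were compared as normalized counts per kilobase of the canonical transcript. In siControl, PSAT1 was highest at 7351 ± 400, followed by SHMT2 (2924 ± 69.8), PHGDH (2225 ± 105), MTHFD2 (2148 ± 109), ASNS (1785 ± 52.3), MTHFD1 (1368 ± 78.9), MTHFD1L (1244 ± 17.5), PSPH (381 ± 21.6), SHMT1 (227 ± 7.52) and ALDH1L2 (206 ± 6.13; per kilobase, SD, n = 3). Of the neighbours in that order, the libraries of PHGDH and MTHFD2 overlapped and those of the other pairs did not. In siPVT1, SHMT2 (2792 ± 38.8) stood above PSAT1 (2385 ± 234), PHGDH was at 1642 ± 214, and MTHFD1 (1221 ± 206), MTHFD2 (1122 ± 50.2) and MTHFD1L (1030.3 ± 57.0) followed. The libraries of PHGDH, MTHFD1, MTHFD2 and MTHFD1L overlapped each with the next. ASNS, at 482 ± 132, had moved below MTHFD1L, and ALDH1L2 was the lowest at 73.9 ± 14.4, under SHMT1 (254 ± 35.6) and PSPH (188 ± 11.8).

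**Figure D4:**
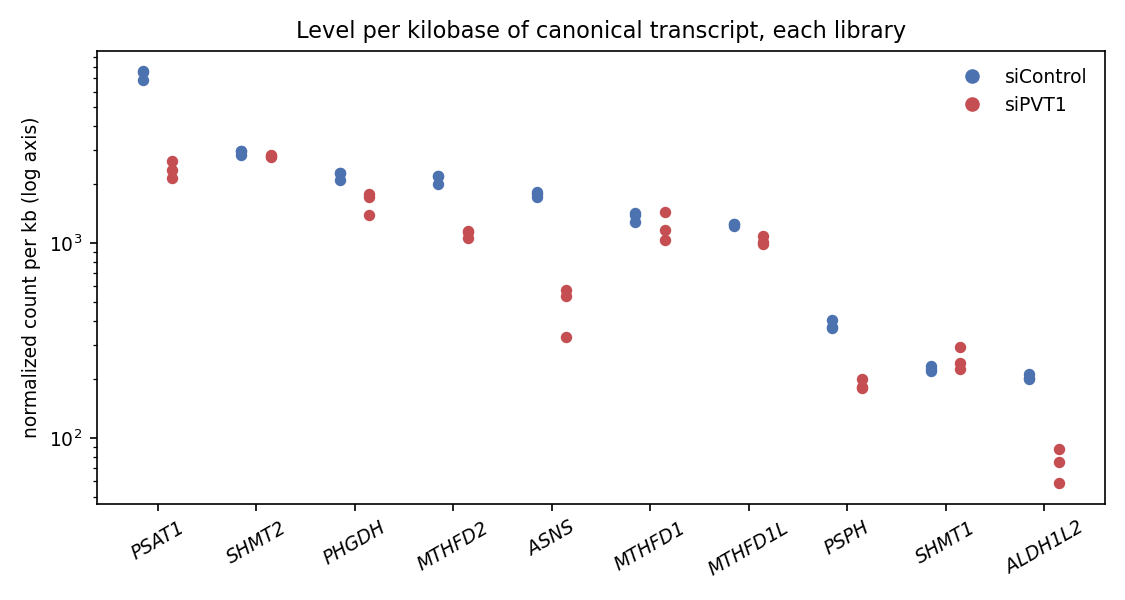
Normalized counts per kilobase of canonical transcript for each enzyme in both groups, with points for libraries, on a log axis. PSAT1 is highest in siControl and SHMT2 in siPVT1.

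Other genes of the pathway were taken from 8 lists of 83 genes, of which 75 were tested. Of these 75, 21 were called lower and 5 higher, and 41 were lower and 12 higher at an adjusted p under 0.05, with a median log2 fold change of -0.48 against 0.0014 over all tested genes. Among all tested genes 9.64% were called lower and 21.5% called in either direction, and at an adjusted p under 0.05 28.4% were lower and 57.9% moved in either direction. The values below are log2 fold changes from the same edgeR fit, with its SE.

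Of 12 other folate enzymes tested, 4 were called lower and 2 higher (median -0.23). MTHFD2L, the mitochondrial relative of MTHFD2, went from 613 ± 24.4 to 238 ± 8.77 normalized counts (-1.36, SE 0.081). ATIC, which closes the purine ring with a formyl group, fell by 1.02 (SE 0.123) on the log2 scale, and GART, an earlier purine enzyme, fell by 0.80 (SE 0.115) and was not called. ATIC was at -0.94 without siPVT1 replicate 1 and -0.99 without replicate 2, short of a call. MTHFS, which returns a storage form of folate to use, was called lower (-1.11, SE 0.168). ALDH1L1, the cytosolic counterpart of ALDH1L2, was called higher on few counts (2.91 ± 1.10 against 8.01 ± 1.79 normalized counts). The call rests on the settings. Every siControl library (highest 4.03) was under the minimum count of the filter, and every siPVT1 library (lowest 6.54) was above it. ALDH1L1 was thus tested only because its siPVT1 values were high, so the filter fixed the direction. It remains in the counts of genes called higher, here and over all lists. It was called without siControl replicate 2, and not without siControl replicate 1 or 3 (edgeR adjusted p = 0.0741 and 0.0912). With a siPVT1 library left out it did not pass the filter and was not tested. ALDH1L1 was not called with DESeq2, without the filter, with filterByExpr, with the replicate block or with glmTreat. TYMS, thymidylate synthase, had 3321 to 3561 in siControl and 3382 to 5233 in siPVT1 and did not pass (adjusted p = 0.192 in edgeR).

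Carriers of serine, glycine and folate held 4 called lower and 1 higher of 10 tested (median -0.65). SLC6A9, a glycine transporter, went from 506 ± 7.78 to 10.9 ± 3.72 normalized counts (SD, n = 3, -5.50, SE 0.170). SLC25A32, which brings folate into mitochondria, had 4469, 4184 and 4368 in siControl and 1689, 1871 and 2297 in siPVT1 (-1.15, SE 0.108). SLC1A5, a carrier of glutamine and other neutral amino acids, fell by 1.01 (SE 0.095), and SLC1A4, a carrier of serine and alanine, by 0.64 (SE 0.097) without a call. SFXN1 and SFXN3 carry serine into mitochondria, and SFXN2 is a relative of theirs. SFXN2 fell by 1.23 (SE 0.247), SFXN3 rose by 1.02 (SE 0.073) and SFXN1, the most abundant, rose by 0.33 (SE 0.080) without a call. SLC1A5 was at -0.93 without siPVT1 replicate 1, and SFXN3 was at 0.99 without siControl replicate 3, 0.95 without siPVT1 replicate 1 and 0.9968 without siPVT1 replicate 2, none of them a call.

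Of 4 genes of glycine cleavage, AMT was called higher from 6.65 to 12.9 normalized counts in siControl to 26.2 to 54.4 in siPVT1, while GCSH (-0.62, SE 0.079) and DLD (-0.27, SE 0.077) were lower without a call (median of the list 0.17). The fourth gene, GLDC, named after its value was seen, rose without a call, from 85.6 ± 4.78 to 130.5 ± 26.9 (0.61, SE 0.173, edgeR adjusted p = 0.0159). None of 10 methionine cycle and transsulfuration genes was called by edgeR, nor by DESeq2, although 6 had an unadjusted p under 0.05 in edgeR and the same number an adjusted p under 0.05, 5 of them lower and 1 higher (median -0.23). MAT2A, which makes S-adenosylmethionine, was 12806 ± 337 and 8237 ± 1414 (-0.64, SE 0.112), and AHCYL1 was at 0.13 (SE 0.055, edgeR adjusted p = 0.081). Of 8 genes of serine and glycine use, SDSL, a serine dehydratase relative, was called lower (-1.51, SE 0.159), PTDSS1, which makes phosphatidylserine, fell by 0.48 (SE 0.125), and SPTLC1, of sphingolipid synthesis, was at -0.17 (SE 0.065, edgeR adjusted p = 0.0528; median of the list -0.33). All 6 asparagine, aspartate and glutamine genes tested passed the adjusted p, 5 of them lower (median -0.84). ASRGL1, an asparaginase, fell by 1.21 (SE 0.184), GOT2, the mitochondrial aspartate aminotransferase, fell by 0.48 (SE 0.088) without a call, and GLUL, glutamine synthetase, rose by 0.80 (SE 0.065) without a call.

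ATF4 and its other targets were listed because several of the enzymes are its known targets, and 15 of these 16 genes were tested. Of them 8 were called lower and 1 higher, 10 were lower and 1 higher at an adjusted p under 0.05, and the median was -1.23. The shares over all tested genes were 9.64% called lower and 28.4% lower at an adjusted p under 0.05. ATF4 itself had 15665, 14262 and 15827 normalized counts in siControl and 10358, 11036 and 12022 in siPVT1 (-0.45, SE 0.074, edgeR adjusted p = 0.00101). It was lower in every siPVT1 library and not called. ATF4 is controlled largely at translation, which RNA counts do not measure. TRIB3, a pseudokinase, had 1930, 1841 and 1911 in siControl and 492, 486 and 493 in siPVT1 (-1.95, SE 0.063). The transcription factors ATF3 (-1.78, SE 0.110), ATF5 (-1.45, SE 0.162) and DDIT3 (-1.02, SE 0.101; -0.95 without siPVT1 replicate 3) were called lower. CHAC1, which degrades glutathione (-1.55, SE 0.176), PPP1R15A, a phosphatase subunit that ends the stress block on translation (-1.48, SE 0.085), SESN2, an amino acid sensor (-1.23, SE 0.080), and PCK2, mitochondrial PEP carboxykinase (-1.23, SE 0.120), were called lower too. VLDLR, a lipoprotein receptor, was called higher (800 ± 37.4 to 3439 ± 399, 2.10, SE 0.096), and STC2, a secreted stress protein, was at -0.14 (SE 0.064, edgeR adjusted p = 0.103).

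Of 10 other proposed regulators, MYC and KEAP1 were called lower (median of the list -0.02). MYC, the transcription factor encoded next to PVT1, had 7716, 7332 and 7534 in siControl and 3751, 3624 and 3815 in siPVT1 (-1.01, SE 0.055). KEAP1, which marks NRF2 for degradation, went from 1668 ± 107 to 833 ± 63.6 (SE 0.082 on the log2 scale), at the 2-fold limit. It lay at -0.97 to -0.99, without a call, when siControl replicate 1 or 3 or siPVT1 replicate 1 or 2 was left out. NFE2L2, which encodes NRF2, fell by 0.22 (SE 0.055) without a call. EIF2AK4, the GCN2 kinase that senses uncharged tRNA, was at 0.08 (SE 0.057, edgeR adjusted p = 0.263).

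**Figure D5:**
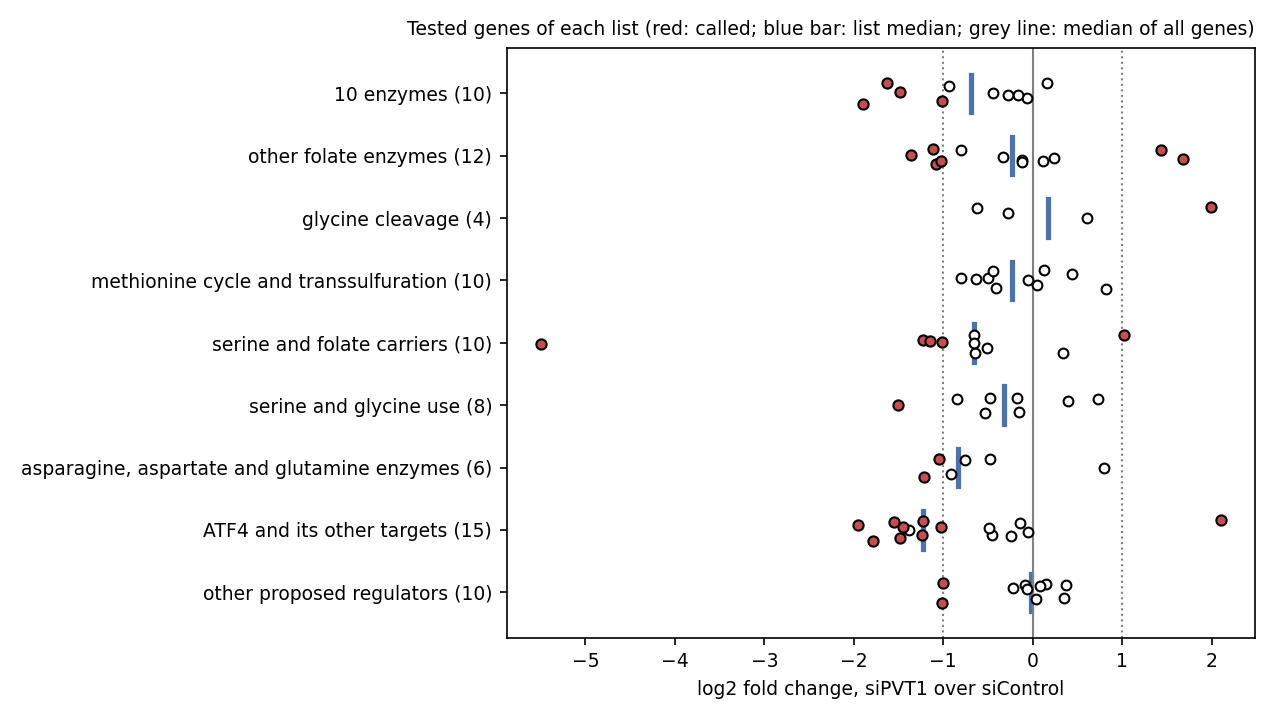
Log2 fold change (siPVT1 over siControl) of every tested gene in the 10 enzymes and the 8 pathway lists, with filled points for called genes and bars for list medians. The median lies at -0.69 for the enzymes, at -1.23 for ATF4 and its other targets and between -0.84 and 0.17 for the other lists.

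The siPVT1 libraries did not order the enzymes alike. Replicate 3 was the highest siPVT1 library for PSPH, SHMT1, MTHFD1 and MTHFD1L and the lowest for PHGDH, PSAT1, ALDH1L2 and ASNS, 4 of 10 each. Over all tested genes it was the highest for 41.3% and the lowest for 39.5%. It was the lowest for 12 of 15 genes tested of the ATF4 list and the highest for 6 of 12 of the other folate enzymes.

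Reads that could belong to more than one gene were sought as 75-base windows of each canonical transcript, the read length, that also occur in transcripts of another gene. PHGDH and MTHFD1L shared no window, and PSAT1, ALDH1L2, SHMT2, PSPH, SHMT1 and MTHFD1 shared 0.75% to 8.31%. ASNS shared 99.5% of windows with a readthrough lncRNA on the same strand, whose symbol was not matched in the count table, so the division of reads between them is uncertain. MTHFD2 shared 31.4% of windows, 0.53% on its own strand and 28.9% with SLC4A5 on the opposite strand. The strand setting of the counting was not given in the sources used here, and SLC4A5 had 21 to 84 counts. C12orf45 (NOPCHAP1), opposite the end of ALDH1L2, had 1386, 1418 and 1458 counts in siControl and 703, 698 and 873 in siPVT1. Of 18 pseudogenes of the enzymes, 6 had no count. PSPHP1 had 16 to 34 counts, at most 10.1% of PSPH, and the pseudogenes of PSAT1 together 19 to 68, at most 0.414% of PSAT1.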

How the data were processed

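RNA of 6 SK-OV3 libraries was prepared with a KAPA mRNA HyperPrep kit and read as single 75-base reads. Per the labels and the study's methods, the authors aligned reads with STAR 2.7.3a to the GENCODE transcriptome of GRCh38.p13 and deposited estimated counts per gene symbol from Salmon 0.14.1, as whole numbers without normalization. The strand setting is not given in the sources used here. Total counts ran from 28383171 to 35059576. Groups and replicate numbers came from the labels, and all 6 columns were used. The intervals and tests given here cover these libraries alone.

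The test ran on 19008 of 59653 genes, those reaching 5 normalized counts in 3 or more libraries, with edgeR 4.0.16 in R 4.3.3 (TMM, quasi-likelihood test, siRNA as the sole term, Benjamini-Hochberg adjustment over all tested genes). A gene was called where its adjusted p was under 0.05 and its log2 fold change was 1 or more in size. The SE is the size of that change over the root of F. DESeq2 1.42.0, other scalings and filters, a replicate block, a test against 2-fold (glmTreat) and leaving out each library were alternatives. The fit was tested on simulated data first. Permutation tests were exact and two-sided, with 0.1 the smallest p for 3 against 3. Transcript lengths and shared windows came from GENCODE v44 on GRCh38, promoters from RefSeq on GRCh38.p14.

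The members and the gene lists were chosen with earlier results of these data known. Named genes are the 10 enzymes, PVT1, the called genes of each list with up to 2 others of highest mean count, the pseudogenes and overlapping genes, and cell type markers. The values of some listed genes are not reported here. The MTHFD1L promoter match and GLDC were added after their values were seen. The replicate numbers were not used as pairs in the main fit, because the study's methods name no pairing. Deviations of same-numbered libraries showed little correlation, and a fit with the replicate block was an alternative.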

Additional observations from a re-analysis of the deposited data

How the results depend on the processing

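Of the 10 enzymes, 4 were called in the main edgeR fit and 3 to 5 under the alternatives: 5 with total count scaling, which adds MTHFD2, and 3 with glmTreat against a 2-fold change or without siControl replicate 3, both of which drop PSPH. Leaving out each library gave 7 or 8 enzymes past the adjusted p, the eighth being MTHFD1 without siPVT1 replicate 3. No enzyme changed its direction under any alternative run. Total count scaling moved the median over all tested genes to -0.15 on the log2 scale, from 0.0014, and the share of higher among called genes to 43.8%, from 55.1%. Under it SHMT2 (-0.22, edgeR adjusted p = 0.0046) and MTHFD1 (-0.31, edgeR adjusted p = 0.0397) passed the adjusted p, both values including that shift. The glmTreat test, by its construction stricter than a fold limit, left 11 of 26 called pathway genes and 1976 of 4081 called genes. Leaving out 1 library gave 21 to 26 called pathway genes, 20 of them called each time, and 3507 to 4239 called genes over all. The labels do not say whether same-numbered libraries were paired. Correlations of their deviations from the group means were -0.037, 0.029 and 0.0023, with 2 of 6 libraries correlating best with their own number. With the replicate block 3924 genes, 25 pathway genes and the same 4 enzymes were called. Depth was not the limit for the enzymes, whose lowest value was 357 normalized counts. With 3 libraries a group, the exact tests could not pass 0.05.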

Other observations

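The spread of the enzymes differed between the groups. The SD of log2 normalized counts was larger in siPVT1 than in siControl for 8 of the 10 enzymes, with medians of 0.169 and 0.0582, and for 68.4% of all tested genes, with medians of 0.184 and 0.0992. The PSAT1 pseudogene PSAT1P3, which was named as a possible sharer of reads, had 53, 46 and 65 counts in siControl and 19, 22 and 19 in siPVT1 (log2 fold change -1.32, SE 0.225), beside -1.62 for PSAT1. PSPHP1 had 19, 16 and 23 counts in siControl and 23, 33 and 34 in siPVT1, while PSPH was lower in every siPVT1 library.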
